A study of Mus musculus with 20 samples.

Results

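The genes described here are 10 transcripts of lipoprotein assembly: the apolipoproteins Apoa1, Apoa2, Apoa4, Apoa5, Apob, Apoc1, Apoc2, Apoc3 and Apoe, and Mttp. They were taken by symbol from a table of 46095 genes, and all 10 were among the 14440 genes that passed the filter on low counts. RNA sequencing had been carried out on the livers of 20 mice in 4 groups of 5, in a study of how Pck1 bears on diet-induced non-alcoholic steatohepatitis (NASH). Pck1 encodes the cytosolic phosphoenolpyruvate carboxykinase of gluconeogenesis. The groups were wild-type mice on a chow diet (WT chow), wild-type mice on a NASH diet (WT NASH), and mice with a liver-specific Pck1 knockout (Pck1-cKO, here KO) on either diet (KO chow and KO NASH). All mice had been on their diet for 24 weeks and were 31 to 33 weeks old. Which Cre driver was used, what the NASH diet holds and whether the controls were littermates is not stated in the sources used here. Replicates are separate libraries, and nothing in the labels says more of the animals behind them, so p-values measure the spread between these libraries.

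The liver exports triglyceride and cholesterol as very low density lipoprotein (VLDL). Each particle is built on 1 molecule of apolipoprotein B, onto which the microsomal triglyceride transfer protein, encoded by Mttp, loads lipid in the endoplasmic reticulum. Smaller apolipoproteins then join the particles or circulate on high density lipoprotein (HDL). Apoa1 and Apoa2 encode the main HDL proteins. Apoa5 and Apoc2 encode proteins that favour lipolysis of triglyceride in plasma, whereas the products of Apoc3 and Apoc1 oppose lipolysis and clearance. Apolipoprotein E is the ligand by which remnants are taken up through receptors of the LDL receptor family. Apolipoprotein A-IV is made in the intestine and, in mice, also in the liver, where its transcript varies with feeding and with liver triglyceride.

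Of the 10 genes, 7 lie in clusters on the GRCm38 build with GENCODE M21 annotation. Apoa1, Apoc3, Apoa4 and Apoa5 lie within 43.3 kb of chromosome 9 (chr9:46228580-46271919), and Apoe, Apoc1 and Apoc2 within 27.6 kb of chromosome 7 (chr7:19671579-19699188). Apoa2 lies at chr1:171225054-171226379, Apob at chr12:7977648-8016835 and Mttp at chr3:138089854-138144968. Below, Apoa4 and Apoa5 are shown to be lower in WT NASH than in WT chow, while their neighbour Apoa1 was not called. The sequences directly upstream of the annotated starts of these 3 genes are therefore shown, from RefSeq promoter windows on GRCm38.p6. Each is read 5′ to 3′ on the plus strand and ends at the base before the first annotated exon. In Apoa4 and Apoa1 that exon begins before the RefSeq start site of the window. Capitals mark matches to the motifs searched.
Apoa4, chr9:46240594-46240695: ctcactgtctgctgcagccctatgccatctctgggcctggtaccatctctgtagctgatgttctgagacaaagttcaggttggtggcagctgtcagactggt
Apoa5, chr9:46268383-46268632: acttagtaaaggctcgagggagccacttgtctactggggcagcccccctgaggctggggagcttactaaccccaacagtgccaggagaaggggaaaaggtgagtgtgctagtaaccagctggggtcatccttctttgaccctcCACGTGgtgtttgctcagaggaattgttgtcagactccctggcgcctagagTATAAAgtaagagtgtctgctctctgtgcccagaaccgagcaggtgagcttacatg
Apoa1, chr9:46228380-46228579: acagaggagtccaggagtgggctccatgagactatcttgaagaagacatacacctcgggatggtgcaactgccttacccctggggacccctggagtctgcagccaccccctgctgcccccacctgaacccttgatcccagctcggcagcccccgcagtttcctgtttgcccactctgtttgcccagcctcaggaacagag
RefSeq promoter windows, from 250 bases before to 50 bases after a start site, were matched for 8 of the 10 genes, all but Apoc1 and Apoc3. The Mttp window lay inside the annotated gene and began in an exon, so no sequence upstream of the annotated Mttp start was searched. On both strands of these windows 5 motifs were searched. The E-box, searched as CACGTG, was found in the Apoa5 window at position -107, counted from the start site, and in 7.15% of all 32851 windows of 300 bases. The TATA box, searched as TATAAA, was found at position -56 in the Apoa5 window, in the Apob and Apoa2 windows, and in 13.6% of all windows. The Apoa4 and Apoa1 windows held none of the 5 motifs, but only 102 and 200 of their bases lay upstream of the annotated gene start. A forkhead site, searched as TGTTTAC, was found in the Apoa2 window and in 3.65% of all windows. A nuclear receptor half-site, searched as AGGTCA, was found in the Apoc2 window and in 16.3% of all windows. An HNF4A-type site, searched as CAAAGTCCA, was in none of the 8 windows and in 0.475% of all. A match describes letters only, and no motif overlapped another.

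Library totals ranged from 9958935 to 20601955 counts, and the 10 genes took 3.17% to 5.57% of them. The genotype labels were checked first on the targeted gene. Mean Pck1 on chow was 3573 ± 1139 CPM (counts relative to the scaled size of the library, SD, n = 5) in wild type against 626 ± 175 in KO, and on the NASH diet 2290 ± 511 against 445 ± 112, with no overlap between genotypes on either diet. The hepatocyte markers were high in all libraries, their sum of 7 genes lying between 48359 and 143189 CPM. The labels do not give sex. Read from Y-linked counts, the females were 4 of the 5 WT NASH mice (all but replicate 4), KO chow replicates 3 and 5, and KO NASH replicate 2, and the other 13 mice were male, among them all of WT chow. Libraries also differed in how levels varied with gene length. The slope of a gene's log2 CPM, relative to its mean over all libraries, on log2 exonic length was -0.35 to -0.25 in 6 libraries (WT chow replicates 3, 4 and 5, WT NASH replicate 4, KO chow replicates 4 and 5), called low-slope below. It was 0.01 to 0.19 in the other 14, which include all of KO NASH. Neither sex nor slope is balanced over the groups, so where a call of the 10 genes or of a pathway list was lost with these as terms, or without the low-slope libraries, that is given beside it. Calls of cell type markers are given from all libraries alone.

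The 10 transcripts spanned a wide range of levels. Over the 20 libraries, mean levels per kb of exonic length were 15629 CPM per kb for Apoa2, 8145 for Apoe, 3689 for Apoa1, 3082 for Apoc1 and 1348 for Apoa4. Lower levels were found for Apoc3 (904 CPM per kb), Apoa5 (687), Apob (618), Mttp (68.4) and Apoc2 (9.52). On this scale Apoa2 was at rank 2 and Apoe at rank 3 of the genes with a matched length. Apoc2 was the exception among the apolipoproteins, at 2.85 to 14.7 CPM per library. It overlaps a readthrough gene, Gm44805, on the same strand, which has no row in the table, so its count is uncertain. Apoa4 and Apoa5 are overlapped on the opposite strand by the antisense or unclassified genes Gm10680, Gm47528 and Gm47544, and Mttp by Trmt10a and Gm43691. The strand setting of the counting is not stated in these sources, so reads of these pairs may not be told apart. Within groups, the coefficient of variation was widest for Apoa2 in WT chow (67.2%), WT NASH (74.3%) and KO chow (68.4%), and for Apoa4 in KO NASH (57.2%).

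**Figure D1:**
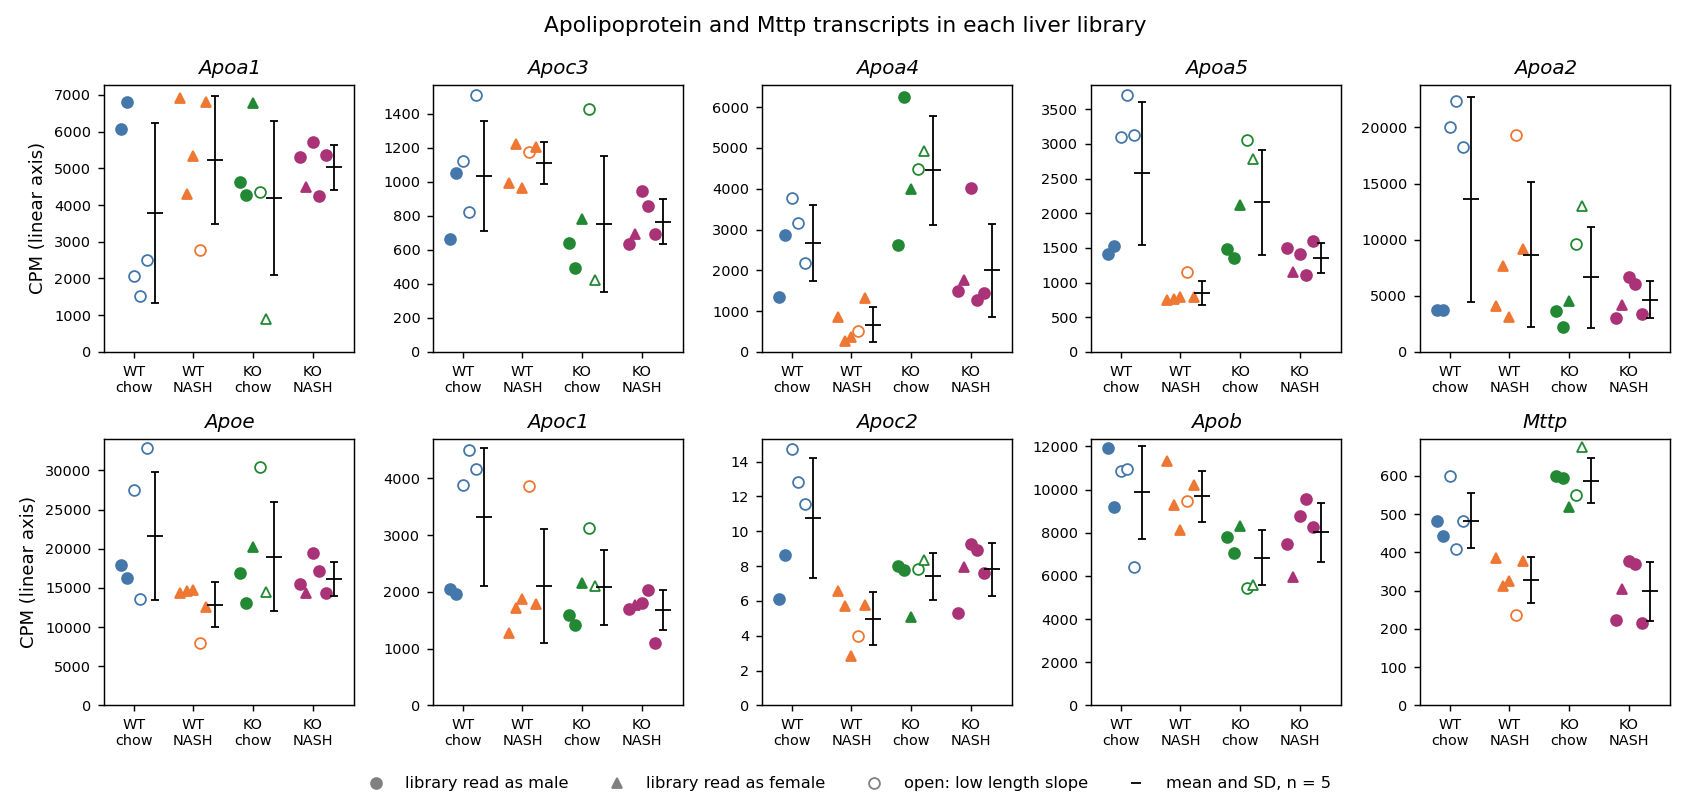
Level of each of the 10 transcripts (CPM on a linear axis) in the 20 liver libraries by group, with males as circles, females as triangles, low-slope libraries as open symbols, and the mean and SD over 5 libraries beside each group. Apoa4 and Apoa5 lie lower in WT NASH than in WT chow without overlap, as does Mttp, and Apoa2 is highest in the open symbols.

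WT NASH was set against WT chow to read the diet difference in wild-type liver. All 5 WT chow mice were male, while WT NASH held 1 male and 4 females. Low-slope libraries were 3 in WT chow and 1 in WT NASH, so diet is mixed with sex and slope here. Apoa4, Apoa5 and Apoc2 fell, and none of the 10 genes was called higher. Called genes, those with an edgeR adjusted p under 0.05, thus made up 3 of the 10, against a background of 5.93% of all 14440 genes in either direction and 3.24% lower. The median log2 fold change of the 10 genes was -0.65, against 0.01 over all genes, with 8 of the 10 values negative. An unadjusted p under 0.05 was found for 5 of the 10, against 22.1% of all genes. The groups did not overlap for 3 of the 10 (Apoa4, Apoa5 and Mttp, all lower), against 6.15% of all genes. A fall in bulk liver RNA can come from fewer cells of a type or from less RNA per cell, and these cannot be told apart here.

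Apoa4, the transcript of apolipoprotein A-IV, was at 1350.1, 2876, 3784, 3167 and 2183 CPM in WT chow replicates 1 to 5. In WT NASH it was at 854, 272, 373, 508 and 1327 CPM. Every WT NASH library lay below every WT chow library, though the highest of the former (replicate 5) and the lowest of the latter (replicate 1) were close. The mean fell from 2672 ± 937 to 667 ± 430 CPM (SD, n = 5 each), a 4.01-fold decrease (log2 fold change -2.00, SE 0.43, edgeR adjusted p = 0.00909). With sex as a term the log2 fold change was -2.06 and the edgeR adjusted p 0.0821, and without the low-slope libraries it was -1.57 with an edgeR adjusted p of 0.134, so the call was lost in both. It was also lost with sex and slope together as terms (-1.98, edgeR adjusted p = 0.0519). The WT NASH male, at 508 CPM, lay below the 5 WT chow males, but it is 1 library and the only low-slope one of its group. In the KO groups, females lay inside the range of the males on each diet: KO chow females were at 3982 and 4928 CPM against males at 2610 to 6245 CPM, and the KO NASH female at 1764 CPM against 1281 to 4025 CPM.

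Apoa5, whose product promotes lipolysis of triglyceride-rich particles, was at 1416, 1528, 3093, 3700 and 3133 CPM in WT chow replicates 1 to 5. In WT NASH it was at 746, 770, 788, 1148 and 794 CPM. The groups did not overlap, and the 3 low-slope WT chow libraries (replicates 3 to 5) all lay above the other WT chow libraries. The mean fell from 2574 ± 1035 to 849 ± 168 CPM, a 3.03-fold decrease (log2 fold change -1.60, SE 0.30, edgeR adjusted p = 0.00319). The call was kept when sex was added (-1.52, edgeR adjusted p = 0.0471), with the length slope as a term (-1.22, edgeR adjusted p = 0.000358) and without the low-slope libraries. The size was smaller in the last of these (-0.91, edgeR adjusted p = 0.0159), where 2 WT chow libraries at 1416 and 1528 CPM were set against 4 WT NASH libraries at 746 to 794 CPM. Those 2 were male and those 4 female, so diet and sex cannot be told apart in that fit.

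Apoc2, which encodes the activator of lipoprotein lipase, was measured at a low level. It was at 6.10, 8.61, 14.7, 12.8 and 11.6 CPM on chow and at 6.59, 5.70, 2.85, 3.97 and 5.75 CPM on the NASH diet. The ranges met at WT chow replicate 1, which lay below WT NASH replicate 1, and the 3 highest libraries were the low-slope ones of WT chow. It fell by 1.11 on the log2 scale (SE 0.26, edgeR adjusted p = 0.0154). With sex as a term the size stayed at -1.10 but the call was lost (edgeR adjusted p = 0.135), as it was with sex and slope together as terms (-0.90, edgeR adjusted p = 0.118) and in a fit of only the 2 groups compared (-1.11, edgeR adjusted p = 0.0715). It was lost, too, without the low-slope libraries (-0.48, edgeR adjusted p = 0.396) and without WT chow replicate 3 alone (-0.97, edgeR adjusted p = 0.0552).

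Mttp, the lipid transfer protein gene, lay between 409 and 601 CPM in WT chow and between 236 and 386 CPM in WT NASH. The groups did not overlap, but the gene was not called (log2 fold change -0.56, SE 0.20, edgeR adjusted p = 0.107). Apob, the structural protein gene of VLDL, had means of 9877 ± 2161 CPM on chow against 9695 ± 1183 CPM on the NASH diet (log2 fold change -0.03, SE 0.22, edgeR adjusted p = 0.958). DESeq2, run as an alternative, called 5 of the 10 genes lower, adding Apoe (-0.77, adjusted p = 0.0462) and Mttp (-0.57, adjusted p = 0.0284). Its calls over all genes were also more, at 10.4% of those it gave an adjusted p.

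With chow feeding, KO and WT livers were set against each other to show what differs with genotype on this diet. All 5 WT chow mice were male and KO chow held 3 males and 2 females, so genotype is mixed with sex here. None of the 10 genes was called by edgeR, against 5.53% of all genes. An unadjusted p under 0.05 was found for 3 (Apob, Apoc1 and Apoc2, all lower), against 19.4% of all genes, and DESeq2 called 1 (Apob), against 9.63%. The median log2 fold change was -0.36, against 0.00 over all genes, and the groups overlapped for all 10 genes, where 4.91% of all genes did not. Apob, at 11932, 9190.4, 10876, 10951 and 6437 CPM in WT chow, was at 7805, 7058, 8297, 5463 and 5582 CPM in KO chow. The 2 lowest KO libraries were the low-slope ones, and WT chow replicate 5 was the only WT library inside the KO range. The log2 fold change of Apob was -0.53 (SE 0.22, edgeR adjusted p = 0.182). The length slope as a term took it to -0.61, and there it was called (edgeR adjusted p = 0.0413). That call was absent once sex joined the slope in the model (-0.56, edgeR adjusted p = 0.0991). Apob also stayed uncalled when only sex was added (-0.48, edgeR adjusted p = 0.314) and when the low-slope libraries were dropped (-0.44, edgeR adjusted p = 0.301). Apoa4 was at 2610, 6245, 3982, 4482 and 4928 CPM in KO chow replicates 1 to 5, a mean of 4449 ± 1329 CPM. It was higher than in WT chow by 0.74 on the log2 scale, which was not called (SE 0.41, edgeR adjusted p = 0.347), and 4 of the 5 KO libraries lay above all 5 WT chow libraries. Apoa5, at 2157 ± 758 CPM, differed from WT chow by -0.26 (SE 0.29, edgeR adjusted p = 0.668).

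The same genotype difference was then read among the mice on the NASH diet (KO NASH against WT NASH). KO NASH held 4 males and 1 female and WT NASH 1 male and 4 females, so genotype is mixed with sex here too. Apoa4 rose, and it was the only one of the 10 genes called, against 9.65% of all genes (4.90% higher). DESeq2 also called 1, against 15.2% of all genes, and 3 had an unadjusted edgeR p under 0.05, against 25.6%. In KO NASH replicates 1 to 5 it was at 1494, 1764, 4025, 1281 and 1441 CPM, against 272 to 1327 CPM in WT NASH. The groups met only at WT NASH replicate 5, which lay just above KO NASH replicate 4, and KO NASH replicate 3 stood apart at the top. The mean of 2001 ± 1145 CPM was 3.00-fold the WT mean on this diet (log2 fold change 1.59, SE 0.42, edgeR adjusted p = 0.0234). The call was lost without KO NASH replicate 3 (1.16, edgeR adjusted p = 0.0844), without WT NASH replicates 2, 3 or 4 (edgeR adjusted p of 0.0574, 0.0505 and 0.0528) and when sex was added (1.63, edgeR adjusted p = 0.0699). It was kept without the low-slope libraries (1.502, edgeR adjusted p = 0.0413).

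Apoa5 in KO NASH was at 1505, 1157, 1405, 1105 and 1603 CPM. All but 1 of these libraries lay above all of WT NASH, the exception being replicate 4, below the low-slope WT NASH replicate 4. Against WT NASH the difference was 0.67 (SE 0.29, edgeR adjusted p = 0.145). Without the low-slope libraries the gene was called (0.80, edgeR adjusted p = 0.00371), but the WT NASH libraries left were all female. It was also called with the length slope as a term (0.95, edgeR adjusted p = 0.00158) and with sex and slope together (0.95, edgeR adjusted p = 0.01). With sex alone as a term it was not called (0.61, edgeR adjusted p = 0.299). Apoc3, which encodes an inhibitor of lipolysis, was the one gene of the 10 whose groups did not overlap, against 14.1% of all genes. It was at 994, 1222, 963, 1178 and 1206 CPM in WT NASH and at 636, 692, 948, 858 and 696 CPM in KO NASH. The log2 fold change of -0.54 was not called (SE 0.29, edgeR adjusted p = 0.247). The median log2 fold change of the 10 genes was -0.10, against 0.00 over all genes.

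The sum of the hepatocyte markers was lower in KO NASH than in WT NASH without overlap, at 63158 to 73567 against 80640 to 105032 CPM, though none of the 7 markers was called. Its part in the results for KO NASH was not tested.

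The diet difference in livers without Pck1 was read from KO NASH against KO chow. Mttp fell, the only one of the 10 genes called, against 3.29% of all genes (1.52% lower). An unadjusted p under 0.05 was found for 3, against 22.2% of all genes. It was at 600, 595, 519, 549 and 675 CPM in KO chow replicates 1 to 5. In KO NASH it was at 224, 303, 379, 371 and 216 CPM, so that the groups were far apart. This was the only gene of the 10 without overlap, against 8.50% of all genes. The mean fell from 588 ± 59.0 to 299 ± 77.5 CPM, a 1.97-fold decrease (log2 fold change -0.98, SE 0.20, edgeR adjusted p = 0.0170). Adding sex (-0.94, edgeR adjusted p = 0.0169), the length slope as a term (-0.98, edgeR adjusted p = 0.00658) and leaving out the low-slope libraries (-0.93, edgeR adjusted p = 0.0119) kept this call. It was lost without KO NASH replicate 5 (-0.89, edgeR adjusted p = 0.0529). KO NASH replicates 1 and 5, the lowest, are also the most alike pair of libraries of any group.

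Apoa4 had a log2 fold change of -1.15 in KO NASH against KO chow (SE 0.42, edgeR adjusted p = 0.118), and Apoa5 of -0.67 (SE 0.29, edgeR adjusted p = 0.180), neither of them called. DESeq2 called Apoa4 beside Mttp (-1.17, adjusted p = 0.0458), against 9.04% of all genes. The median of the 10 genes was -0.27, against -0.02 over all genes. Set beside each other, the values of Apoa4 were -2.00 for the diet in WT and -1.15 in KO, and 0.74 for the genotype on chow and 1.59 on the NASH diet. For Mttp they were -0.56, -0.98, 0.28 and -0.14 in the same order. These comparisons share groups and are not independent of each other.

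**Figure D2:**
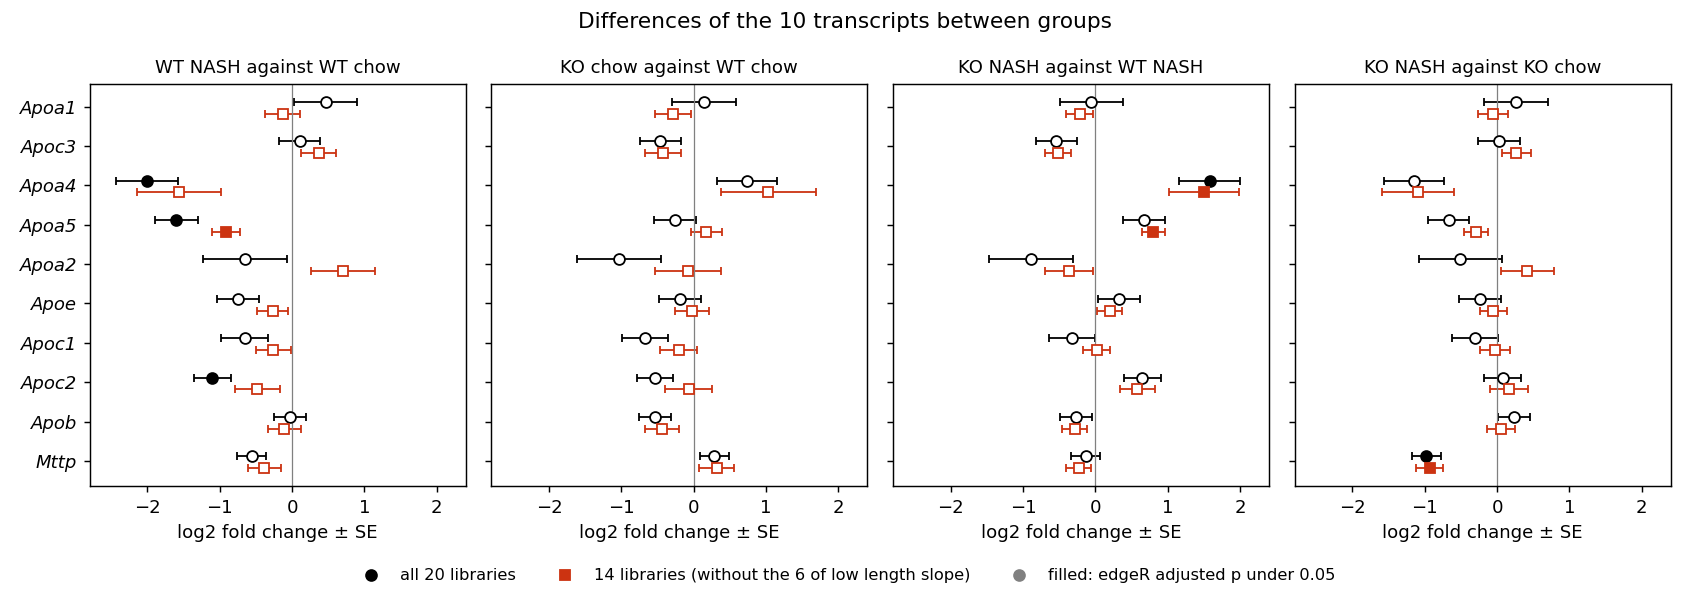
Log2 fold change ± SE of the 10 transcripts (rows) in the 4 comparisons (panels), from all 20 libraries (black circles) and without the 6 low-slope libraries (red squares), filled where the edgeR adjusted p was under 0.05. From all libraries Apoa4, Apoa5 and Apoc2 are called in the first panel, none in the second, Apoa4 in the next and Mttp in the last, and Apoa2 changes sign in the first and last panels without the low-slope libraries.

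The interaction tests whether the genotype difference on the NASH diet differs from that on chow. None of the 10 genes was called, where 0.139% of all genes were, and DESeq2 called 0, against 1.31% of all genes. An unadjusted p under 0.05 was found for 2, against 8.25% of all genes. They were Apoa5 (0.93, SE 0.41, edgeR adjusted p = 0.536) and Apoc2 (1.18, SE 0.36, edgeR adjusted p = 0.229). For Apoa4 the interaction was 0.85 (SE 0.58, edgeR adjusted p = 0.783) and for Mttp -0.42 (SE 0.28, edgeR adjusted p = 0.779). The calls of Apoa4, Apoa5 and Apoc2 on the NASH diet in WT, and of Mttp in KO, are thus not shown to differ between genotypes.

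The HDL genes were not called in any comparison, and their levels differed between the low-slope and the other libraries. Apoa2, with the shortest exonic length of the 10, was at 9646 to 22321 CPM in the 6 low-slope libraries and at 2242 to 9151 CPM in the other 14, without overlap. Within WT chow, replicates 3 to 5 were at 20044, 22321 and 18252 CPM and replicates 1 and 2 at 3691 and 3742 CPM. Its difference between WT NASH and WT chow was -0.65 (SE 0.58) with all libraries and 0.71 without the low-slope ones, neither called (edgeR adjusted p of 0.528 and 0.384). Apoa1 moved the other way: it was at 909 to 4357 CPM in the low-slope libraries and at 4256 to 6908 CPM in the others, and was not called in any comparison. Its value in KO chow replicate 5, 909 CPM, was the lowest of the 20.

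Apoc1, which encodes a small inhibitor of lipoprotein uptake, was at 2098 to 4503 CPM in the low-slope libraries and 1107 to 2154 CPM in the others, an overlap of 1 low-slope library with the rest. It was not called in any comparison of all libraries. Without WT NASH replicate 4, at 3857 CPM, it was called lower in WT NASH (-1.01, edgeR adjusted p = 0.0365). That library is the only male and the only low-slope one of WT NASH, so WT NASH females were there set against WT chow males. In the same comparison Apoc1 was not called with the length slope as a term (-0.325, edgeR adjusted p = 0.29). Nor was it called without the low-slope libraries (-0.26, edgeR adjusted p = 0.578). Apoe lay between 7941 CPM (WT NASH replicate 4) and 32833 CPM (WT chow replicate 5). Group means of Apoe in WT were 21641 ± 8172 CPM on chow and 12837 ± 2879 CPM on the NASH diet, and in KO 19013 ± 6929 and 16166 ± 2191 CPM. None of its differences was called by edgeR, the largest being -0.75 for WT NASH against WT chow (SE 0.29, edgeR adjusted p = 0.130). Macrophages also make Apoe. The sum of 13 Kupffer cell and macrophage markers ranged in WT over 385 to 1953 CPM on chow and 596 to 1818 CPM on the NASH diet, and in KO over 592 to 2629 and 473 to 660 CPM, with none at 0 counts in a whole group. Of the 13, only Cd68 was called in WT NASH and in KO chow against WT chow, higher in both, where 5.93% and 5.53% of all genes were called. In KO NASH against WT NASH Gpnmb was called higher and Timd4 lower, against 9.65% of all genes. Levels of the markers not called went both ways in WT NASH against WT chow, with Marco, C1qb and Cd5l lower and Csf1r and Vsig4 higher. The part of these cells in the Apoe values was not tested.

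**Figure D3:**
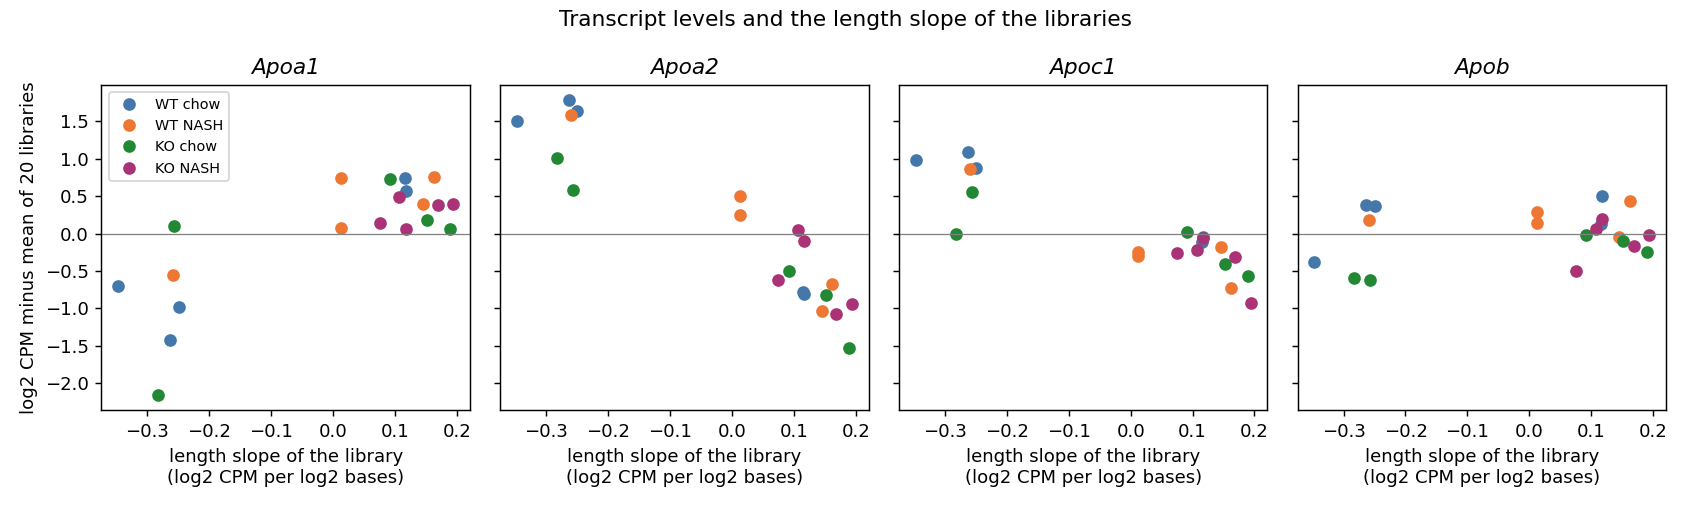
Level of Apoa1, Apoa2, Apoc1 and Apob in each library (log2 CPM minus the mean of 20 libraries) against the length slope of that library (log2 CPM per log2 bases), colored by group. In the 6 low-slope libraries at the left, Apoa2 is higher than in the other 14 without overlap, Apoc1 is mostly higher and Apoa1 mostly lower, while Apob overlaps throughout.

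Since Apoa4 and Apob are also made by intestinal epithelium, markers of that tissue were read as a sign of it. Of 8 such genes, 7 were at no more than 1.32 CPM in any library, and Cdx2, a defining transcription factor, had at most 1 count. The eighth, Fabp2, also expressed in liver, was at 79.0 to 307 CPM, and was not called in any comparison. Of the markers of other cell types, Car3 (adipose tissue list, 2 tested) and Cd3e (B and T cell list, 7 tested) were called higher in WT NASH than in WT chow. Hbb-bs and Hbb-bt (red blood cell list, 5 tested) were called lower, whereas none was called among the hepatocyte, cholangiocyte, stellate cell, endothelial or pancreas lists. The share over all genes was 5.93%. Lep, of the adipose list, had 0 counts in WT NASH. For genotype on the NASH diet, Cfd (adipose) and Kdr (endothelial, 6 tested) were called higher and Cela1 (pancreas, 1 tested) and Cd3g (B and T cell) lower, against 9.65% of all genes. For diet in KO, Col1a1 (stellate cell, 7 tested) and Sox9 (cholangiocyte, 6 tested) were called higher and Hbb-bs and Hbb-bt lower, against 3.29% of all genes. The part of these cells in the apolipoprotein values was not tested.

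Other genes of the pathway were counted by list. Among 22 genes of particle assembly and secretion, WT NASH against WT chow called 2 lower, Dgat1 and Sec23a, where 3.24% of all genes were called lower. The list median was 0.15, against 0.01 over all genes. Dgat1, which makes the triglyceride loaded onto particles, had means in WT of 26.9 ± 1.57 CPM on chow and 14.5 ± 1.96 CPM on the NASH diet, and in KO of 48.9 ± 11.8 and 23.1 ± 3.02 CPM. It was called in all 4 pairwise comparisons, lower on the NASH diet in WT (-0.89, SE 0.16, edgeR adjusted p = 0.00329) and in KO (-1.08, SE 0.16, edgeR adjusted p = 0.00283), and higher in KO on chow (0.86, SE 0.16, edgeR adjusted p = 0.00450) and on the NASH diet (0.67, SE 0.16, edgeR adjusted p = 0.0156). With sex as a term the Dgat1 calls were lost for the diet in WT (-0.73, edgeR adjusted p = 0.111) and for the genotype on the NASH diet (0.54, edgeR adjusted p = 0.107, and 0.0597 with sex and slope together). Sec23a, a coat protein of vesicles that leave the endoplasmic reticulum, was lower on the NASH diet in WT (-0.77, SE 0.18, edgeR adjusted p = 0.0145) and in KO (-0.67, SE 0.18, edgeR adjusted p = 0.0441). Its call in WT was lost when sex was added (-0.59, edgeR adjusted p = 0.203) and with both terms (edgeR adjusted p = 0.102). Aadac, a lipid hydrolase of the endoplasmic reticulum, was lower in KO NASH than in WT NASH (-1.98, SE 0.53, edgeR adjusted p = 0.0243), and less so without the low-slope libraries (-1.32) or with both terms (-1.25), where the call was kept. The 3 genes of Apob mRNA editing (Apobec1, A1cf and Rbm47) were not called in any comparison by edgeR. At an unadjusted p under 0.05 there was 1 in each diet comparison and in the interaction, and 0 in the genotype comparisons, where the shares over all genes given above were 8.25% to 25.6%.

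Of 13 other tested apolipoproteins and plasma lipoprotein proteins, edgeR called none in WT NASH against WT chow, and 0 had an unadjusted p under 0.05, against 5.93% and 22.1% of all genes. Saa4, a constitutive HDL protein, was lower in KO chow than in WT chow (60.8 ± 52.2 CPM and 321 ± 108 CPM, a difference of -2.40 on the log2 scale, SE 0.57, edgeR adjusted p = 0.0190, and 0.104 without the low-slope libraries, at -2.36), and higher in KO NASH than in KO chow (2.05, SE 0.56, edgeR adjusted p = 0.0494). Pon1, an HDL-bound esterase, was lower in KO NASH than in WT NASH (569 ± 178 CPM and 2069 ± 841 CPM, a difference of -1.86, SE 0.45, edgeR adjusted p = 0.0136, and -1.09 with both terms, where the call was kept). Each was the only 1 of the 13 called in its comparison. The shares over all genes were 5.53% in KO chow against WT chow, 9.65% in KO NASH against WT NASH and 3.29% in KO NASH against KO chow.

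Among 21 genes of lipolysis, receptors and clearance, edgeR called 1 in each pairwise comparison, a share near or below the 5.93%, 5.53%, 9.65% and 3.29% of all genes. Vldlr, the VLDL receptor, had means in WT of 0.94 ± 0.41 CPM on chow and 10.2 ± 7.53 CPM on the NASH diet, and in KO of 15.6 ± 12.1 and 16.6 ± 9.47 CPM. It was called higher in WT NASH than in WT chow (3.49, SE 0.77, edgeR adjusted p = 0.0107) and higher in KO chow than in WT chow (4.07, SE 0.78, edgeR adjusted p = 0.00453). The diet call was lost when sex was added (1.26, edgeR adjusted p = 0.472) and with both terms (1.502, edgeR adjusted p = 0.203). Lpl, the lipase that Apoc2 activates, was called higher in KO NASH than in WT NASH (218 ± 245 CPM and 36.3 ± 10.5 CPM, a difference of 2.59, SE 0.65, edgeR adjusted p = 0.0176), with an SD above its mean. This call was lost when sex was added (1.71, edgeR adjusted p = 0.195) and with both terms (1.57, edgeR adjusted p = 0.176). The sterol exporter gene Abcg5 was lower in KO NASH than in KO chow (-1.47, SE 0.21, edgeR adjusted p = 0.00191).

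Among 28 transcription regulators of apolipoprotein genes, 5 were called in WT NASH against WT chow, against 5.93% of all genes: Srebf1, Srebf2 and Foxo1 higher, and Creb3l3 and Esrra lower. With sex as a term the calls of Srebf2 (edgeR adjusted p = 0.0755) and Foxo1 (edgeR adjusted p = 0.104) were lost. Srebf1, a regulator of lipid synthesis, rose from 19.04 ± 3.40 to 117 ± 40.6 CPM (2.61, SE 0.31, edgeR adjusted p = 7.41e-05). Creb3l3 encodes a membrane-bound hepatic factor known to act on Apoa4, Apoa5 and Apoc2, and it is described because of its values, which were seen first. It was at 381, 386, 598, 543 and 634 CPM in WT chow and at 271, 209, 229.8, 198 and 265 CPM in WT NASH, without overlap (-1.12, SE 0.20, edgeR adjusted p = 0.00217). The 3 highest of these values are the low-slope WT chow libraries, and without the low-slope libraries the call was lost (-0.64, edgeR adjusted p = 0.0565). In KO chow it was at 519 ± 74.0 CPM and in KO NASH at 342 ± 55.9 CPM, and it was not called in the other comparisons. Its part in the values of the 10 genes was not tested. Nr0b2, a nuclear receptor without a DNA-binding domain, was lower in KO on chow (3.76 ± 3.38 CPM and 28.7 ± 16.0 CPM in WT, a difference of -2.95, SE 0.67, edgeR adjusted p = 0.0139) and on the NASH diet (-2.06, SE 0.64, edgeR adjusted p = 0.0448). The chow call of Nr0b2 was lost without the low-slope libraries (-2.60, edgeR adjusted p = 0.0549), and the other when sex was added (-1.95, edgeR adjusted p = 0.0878) or both terms (-1.003, edgeR adjusted p = 0.102). Also called in KO chow against WT chow were Hnf4g and Esrra, higher, and Mlxipl, lower. With Nr0b2, 2 of the 28 were thus called higher and 2 lower, against 5.53% of all genes in either direction. Without the low-slope libraries Hnf4g (edgeR adjusted p = 0.328) and Mlxipl (edgeR adjusted p = 0.120) were not called, and once sex was added neither were Hnf4g (edgeR adjusted p = 0.0620) and Esrra (edgeR adjusted p = 0.0685). On the NASH diet 1 of the 28 was called higher in KO and 4 lower, Nr0b2 among them, against 9.65% of all genes. The others were Esrra, higher, and Foxo1, Mlxipl and Srebf1, lower. Of these, only the call of Esrra was kept once sex was added, with an edgeR adjusted p of 0.0854 for Foxo1, 0.192 for Mlxipl and 0.315 for Srebf1. With both terms, Mlxipl was the only one of these 4 not called (edgeR adjusted p = 0.0918). In KO NASH against KO chow edgeR called none of the 28, and 8 had an unadjusted p under 0.05, against 22.2% of all genes.

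The 10 genes did not move as a block over the libraries. Apoa4 and Apoa5, neighbours on chromosome 9, had a Pearson correlation of log2 CPM of 0.71 over 20 libraries and 0.75 over the 14 that were not low-slope. Apoa2 and Apoc1 had 0.85 over 20 libraries and 0.33 over the 14, while Apoa2 and Apoc3 had 0.47 and 0.76. Apoa4 and Mttp had 0.66 and 0.50. These values describe libraries that share group, sex, slope and depth, and carry no test.

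**Figure D4:**
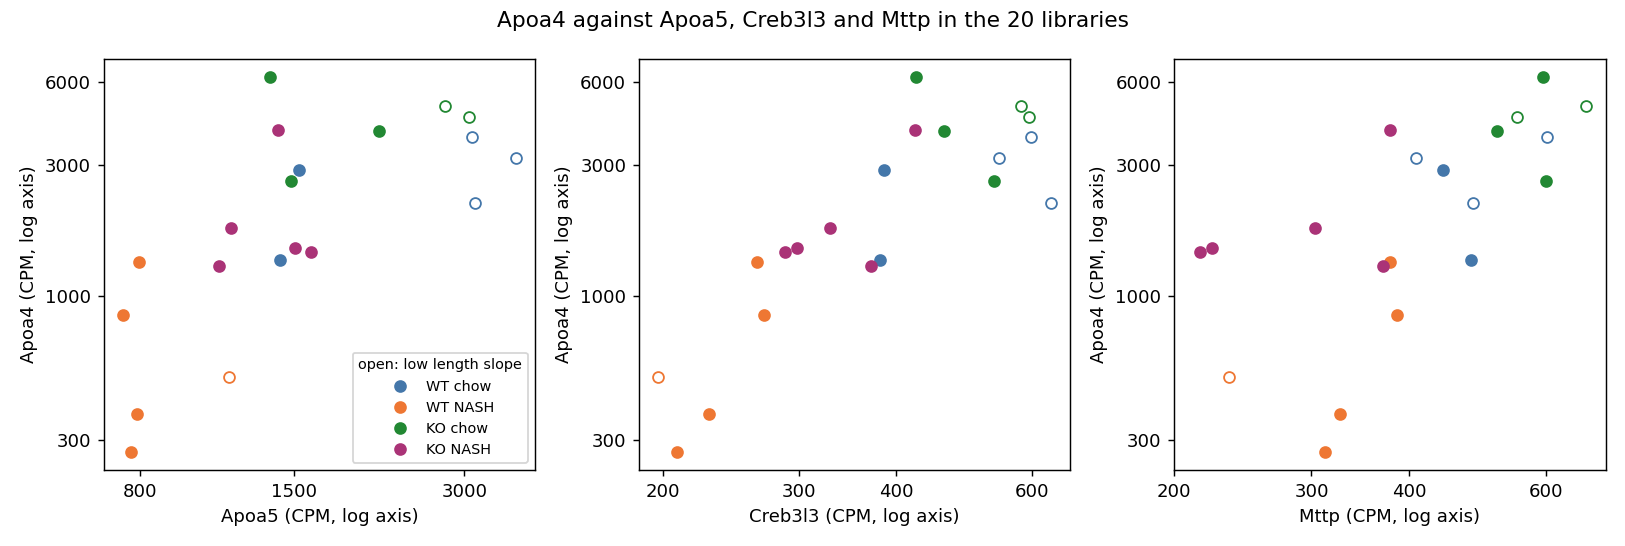
Level of Apoa4 (CPM, log axis) against Apoa5, Creb3l3 and Mttp (CPM, log axes) in the 20 libraries, colored by group, with low-slope libraries as open symbols. WT NASH libraries lie at the lower left of the first and second panels, with Apoa4 at 272 to 1327 CPM, and KO NASH libraries lie above most of them at similar Mttp levels.

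The gene most like each of the 10, by Pearson correlation of log2 CPM over all 20 libraries among genes whose mean was 5 CPM or more, was taken as a description. For Apoa4 it was Cgref1 (0.88 over 20 libraries, 0.87 over the 14 that were not low-slope), for Apoa5 Emc3 (0.95 and 0.89), for Mttp Pank1 (0.93 and 0.92) and for Apoe Sdf4 (0.94 and 0.91). For Apoa2 it was Tmem205 (0.98 and 0.95), for Apoc2 G0s2 (0.82 and 0.78), for Apoc3 Rdh5 (0.83 and 0.75) and for Apob Zfp654 (0.82 and 0.75). For Apoa1 and Apoc1 the likeness was weaker among the 14: Katna1 had 0.95 with Apoa1 over 20 libraries and 0.45 over the 14, and Ndufa13 had 0.92 and 0.70 with Apoc1.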

How the data were processed

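RNA from 20 mouse livers, 5 per group, had been extracted with Trizol and sequenced by a standard Illumina protocol, with RNA integrity numbers above 8 per the labels' protocols. Reads had been aligned with HISAT2 2.0.4 and the build was GRCm38, per the submitters' processing notes. The counting program, annotation and strand setting were not given in the sources used here. Raw whole-number counts of reads per gene symbol are what the authors deposited. Columns named HFD were taken as the NASH groups, since all others name chow (CD).

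The counts were tested with edgeR 4.0.16 under R 4.3.3. filterByExpr (minimum count 10) kept 14440 genes with 99.91% of the counts. Libraries were scaled with TMM, 1 model of 4 group coefficients was fitted to all 20, and the quasi-likelihood F test was adjusted by Benjamini-Hochberg over all genes tested. Genes were called at an adjusted p under 0.05. Each SE is the unshrunk log2 fold change divided by the root of F. CPM used TMM-scaled library sizes, in which 1 count stood for 0.0485 to 0.1 CPM before scaling. Reads carry no molecular identifiers in the table, so precision from depth covers counting error only. GENCODE M21 gave the exonic length of 13502 (93.5%) tested genes by symbol, and the length slope used the 9465 of these whose mean log2 CPM reached 2. A library was read as male from 100 counts upward over 4 Y-linked genes.

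All 10 genes are reported in every comparison. Of each pathway list the most changed called gene is described and other called genes are named, and the 3 genes most like each of the 10 were computed. From the list of lipolysis, receptors and clearance, 2 genes are not reported here and are not in its counts. The 10 genes, the lists and the tests were chosen with earlier results of these data known. Alternatives were RLE size factors, scaling that leaves out the 20 most abundant genes, all genes unfiltered, DESeq2 1.42.0, a fit of the compared groups only, a replicate block, sex, length slope or both as terms, each sex alone, no low-slope libraries, KO NASH replicates 1 and 5 summed, and each library left out. A fit of the low-slope libraries alone was added after seeing the data. KO NASH replicates 1 and 5 were the most alike pair (chi-square of 7.81 per gene, against at least 21.5 in other pairs) but differed by more than sampling noise, and were counted as 2. The procedure was tested on simulated counts.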

Additional observations from a re-analysis of the deposited data

Results flagged for a closer look

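In 40 sets of 5 libraries (10 genes in 4 groups), the highest or lowest library stood apart from the other 4 by Dixon's criterion in 4. Chance gives this in about 1 of 20 sets. Apoa4 in KO NASH replicate 3 was at 4025 CPM, with the other 4 at 1281 to 1764 CPM. Apoa5 in WT NASH replicate 4 was at 1148 CPM, with the others at 746.2 to 794.2 CPM, and Apoc1 in the same library was at 3857 CPM, with the others at 1280 to 1866 CPM. That library is the only male and the only low-slope library of its group, and it had the fewest counts of the 20 (9958935). Apoc2 in KO chow replicate 3 was at 5.05 CPM, below the others at 7.801 to 8.325 CPM.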

How the results depend on the processing

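Over 34 settings, 50 results (10 genes in 5 comparisons) were recomputed 1630 times. Direction and side of the threshold were kept in 1528, while 24 lost a call, 11 gained one and 67 changed sign. None of the 5 called results changed sign, and they kept their call in 141 of 165. Some results had no fit: female libraries alone allow no comparison with WT chow, low-slope libraries alone none with KO NASH, and the interaction was not fitted with only 2 groups.

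The count of called genes in WT NASH against WT chow, 3, was 5 by DESeq2, 1 with sex as a term, with sex and length slope as terms or without the low-slope libraries, and 0 in males alone or in low-slope libraries alone. In KO chow against WT chow it was 1 by DESeq2 and with the length slope as a term, instead of 0. In KO NASH against WT NASH, instead of 1, it was 2 with only the groups compared, with both terms or without the low-slope libraries, 3 with the length slope, and 0 with sex as a term, in males alone or in females alone. In KO NASH against KO chow, instead of 1, it was 2 by DESeq2 and 0 in males alone or females alone. With each library left out, the counts ranged over 2 to 4 in WT NASH against WT chow, 0 to 0 in KO chow against WT chow, 0 to 1 in each KO NASH comparison and 0 to 0 for the interaction. The cause of these changes was not tested, except that males alone, females alone and low-slope libraries alone hold fewer libraries. WT NASH is 1 library in males alone and in low-slope libraries alone, and KO NASH is 1 library in females alone. These fits are thus weak checks of comparisons with those groups. In males alone the median of all genes shifted by 0.195 on the log2 scale in KO NASH against WT NASH and by 0.173 in the interaction.

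A replicate block (the number as a term) gave counts of 3, 0, 1, 1 and 0 in the order of the report, the same as without it. Deviations of libraries of equal number had correlations of -0.412 to 0.474, with a median of 0.05 and 13 of 30 pairs over 0.1. Libraries of other numbers had a median of -0.0275, with 36 of 120 pairs over 0.1. Best with their own number were 5 of 20 libraries. No pairing by number was thus shown, but so few pairs cannot exclude a weak one.

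The values that changed sign, none of them called, were these. Without the low-slope libraries: Apoa1 -0.13 in WT NASH against WT chow, -0.29 in KO chow against WT chow, -0.056 in KO NASH against KO chow and 0.071 in the interaction; Apoa2 0.71 in WT NASH against WT chow, 0.42 in KO NASH against KO chow and -0.29 in the interaction; Apoa5 0.17 in KO chow against WT chow; Apoc1 0.018 in KO NASH against WT NASH. With the length slope as a term: Apoa2 0.20 in WT NASH against WT chow and 0.53 in KO NASH against KO chow, Apoa1 -0.032 in KO chow against WT chow and -0.14 in KO NASH against KO chow, and Apoc1 0.035 in KO NASH against WT NASH and 0.076 in KO NASH against KO chow. With sex and length slope as terms: Apoa2 0.24 in WT NASH against WT chow and 0.52 in KO NASH against KO chow, Apoa1 -0.17 and Apoc1 0.034 in KO NASH against KO chow. With sex as a term: Apob 0.065 in WT NASH against WT chow, Apoa1 0.030 in KO NASH against WT NASH, Apoc3 -0.017 in KO NASH against KO chow and Apoa2 -0.14 in the interaction. In males alone: Apoa1 -0.47, Apoa2 0.48 and Apoc1 0.20 in WT NASH against WT chow, Apoa1 0.92 and Mttp 0.37 in KO NASH against WT NASH, Apoc2 -0.026 and Apoc3 -0.12 in KO NASH against KO chow, and Apoa1 0.69, Apoa2 -0.60, Apoc1 -0.50 and Mttp 0.089 in the interaction. In females alone: Apoc1 0.11 in KO NASH against WT NASH and Apob -0.21 in KO NASH against KO chow. In low-slope libraries alone: Apoc3 -0.069 in WT NASH against WT chow. WT NASH in males alone and in low-slope libraries alone, and KO NASH in females alone, are 1 library each.

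With a library left out, sign changes fell in these ranges. In WT NASH against WT chow Apob spanned -0.15 to 0.044 and Apoc3 -0.032 to 0.28. In KO chow against WT chow Apoa1 spanned -0.099 to 0.46 and Apoe -0.43 to 0.024. In KO NASH against WT NASH Apoa1 spanned -0.22 to 0.064 and Apoc1 -0.45 to 0.016. In KO NASH against KO chow Apoa1 spanned -0.021 to 0.51, Apoc2 -0.034 to 0.18 and Apoc3 -0.16 to 0.39. In the interaction Apoa1 spanned -0.52 to 0.042, Apoa2 -0.11 to 0.67 and Apoc3 -0.27 to 0.29. At 2.85 to 14.7 CPM, Apoc2 is the gene whose values depth limits most.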
